A study of Mus musculus with 8 samples.

Results

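The genes described here are 10 genes that mark or drive the epithelial-mesenchymal transition (EMT), the switch by which cells joined in a sheet loosen their junctions and become motile. They are the transcription factor genes Snai1, Snai2, Twist1, Twist2, Zeb1 and Zeb2 and the cell surface genes Cdh1, Cdh2, Epcam and Ocln. They were taken by name, with the symbol read from the gene column, and all 10 were found among the 23100 genes of the count table. The cells were Min6, a line from a mouse insulinoma that makes insulin as beta cells do. The cells were transfected with pRK5-Zac1, a plasmid that expresses the zinc finger transcription factor Zac1, the product of the imprinted gene Plagl1, or with pRK5-NLSeGFP, which expresses a nuclear green fluorescent protein and served as control. Every group was a lipid-transfected culture of this same line, and RNA was taken 16 h later. Each group held 4 libraries of messenger RNA, numbered 1, 2, 3 and 5, which the design text calls biological replicates. The sources do not say which cells took up the plasmid, so each value is a mean over transfected and untransfected cells.

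Epithelial cells are held together by E-cadherin, the product of Cdh1, which binds its like on the next cell and is anchored inside by catenins. Factors of the Snail, Zeb and Twist families bind short DNA elements called E-boxes and, in EMT, repress Cdh1 and other junction genes, while N-cadherin, the product of Cdh2, often takes the place of E-cadherin. Islet endocrine cells are epithelial and neural-like at once and are known to carry E-cadherin and N-cadherin together, which help to hold an islet together.

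The libraries held between 30548923 and 42446737 counts, and 3 counts in the shallowest correspond to 0.0982 CPM (counts per mega, or M, counts). Levels below are CPM with TMM-scaled totals, and mean ± SD over n = 4 libraries a group. The transfection was checked by Plagl1 itself, at 77.7 ± 7.38 CPM in the controls and 4629 ± 777 CPM with the Zac1 plasmid, whose reads are counted with those of the endogenous gene. The 14 beta cell markers were all tested, with 0 called in edgeR, DESeq2 or limma-voom (0 also at an edgeR p under 0.05 before adjustment). Over all tested genes edgeR called 2.18%, and 7.58% had an unadjusted p under 0.05. The summed level of the 14 ranged from 63666 to 80762 CPM in the controls and from 66141 to 74224 CPM in the Zac1 libraries. Most of it was Ins2, Iapp and Ins1, named for that (40157, 16616 and 9426 CPM in the controls), so it says little of the others. Every Zac1 library was below every control in Pcsk2, named for that (2710 to 2759 against 2806 to 2863 CPM, edgeR adjusted p = 0.933). Groups lay apart this way in 203 of 14331 tested genes. The markers of endothelial and immune cells summed to 7.42 to 8.83 CPM and 6.86 to 9.65 CPM, with Cdh5 and Cldn5 at 0 in all libraries. Those of duct and acinar cells summed to 7.5 to 11.8 CPM and 9.02 to 11.4 CPM, with Prss1 and Amy2a5 at 0. These markers leave out the keratin Krt7, listed with the epithelial surface genes, at 160 ± 15.7 and 149 ± 20.6 CPM. Those of fibroblasts and stellate cells summed to 1.96 to 2.91 CPM and 2.96 to 4.17 CPM, with Lum at 0 in all libraries. The last sums include Des, the 1 called gene of that list, at 0.043 ± 0.0546 CPM in the controls and 1.58 ± 0.372 CPM with Zac1. The other genes of the list were not called or not tested and are given further down. In bulk RNA of this kind, a change in the number of cells that express a gene and a change in RNA per cell cannot be told apart.

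Zac1 was followed by no called change in any of the 10 genes. Of the 7 that had enough counts to be tested, 0 were called by edgeR's quasi-likelihood test at a Benjamini-Hochberg adjusted p under 0.05, against 2.18% of all 14331 tested genes, and DESeq2 and limma-voom also called 0. At an unadjusted p under 0.05 there was 1, Ocln, against 7.58% of all tested genes. With only 7 genes, a count of 0 does not set them apart from that background. Their median log2 fold change (Zac1 minus control) was 0.04, with a range of -0.09 to 0.30, and the median of all tested genes was -0.01. Each of the 7 estimates came with a 95% interval that lay within a log2 of -0.20 to 0.54, so none of these intervals reached a 2-fold change in either direction.

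**Figure D1:**
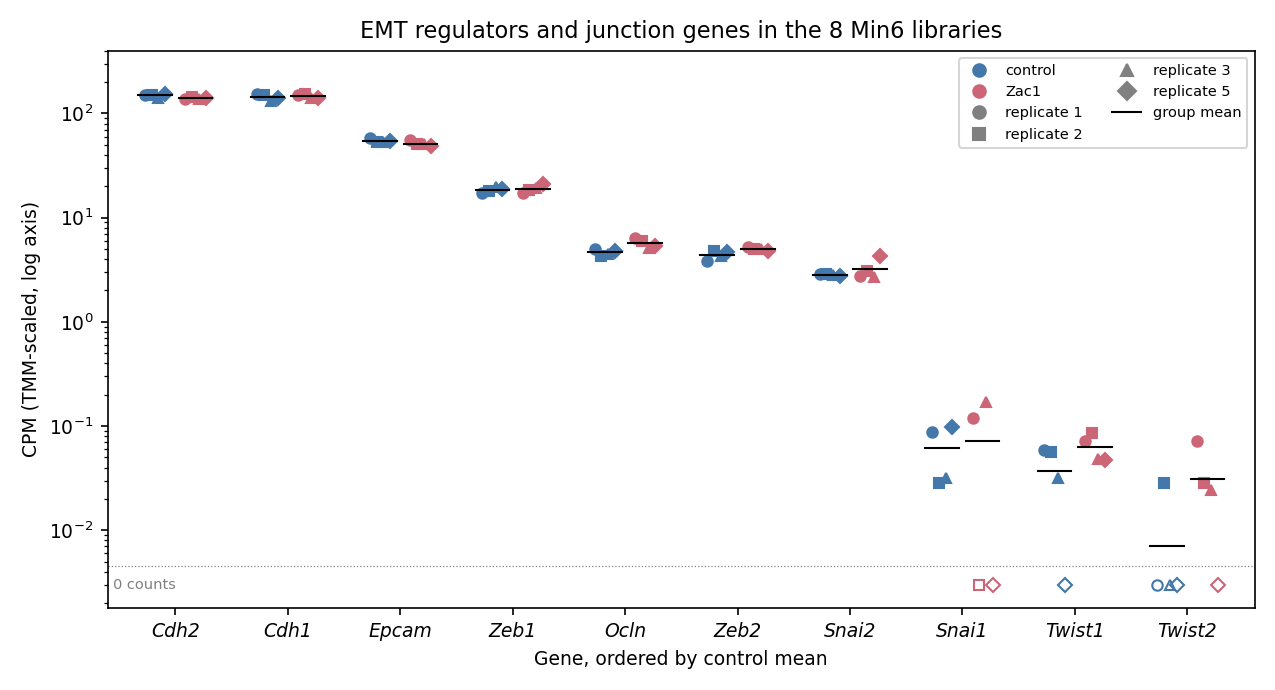
Level of each of the 10 genes in every library, in CPM with TMM-scaled library totals on a log axis; colour gives the group, symbol the replicate number and the bar the group mean. Open symbols under the dotted line are libraries with 0 counts. The genes fall into 7 with 84 to 6373 counts per library and 3 (Snai1, Twist1, Twist2) with 0 to 7 counts.

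The junction and surface genes are taken first, starting with E-cadherin. Cdh1 stood at 153, 149, 132 and 142 CPM in control libraries 1, 2, 3 and 5, and at 152, 155, 142 and 141 CPM in the Zac1 libraries of the same numbers. The groups overlapped, with the lowest value in control library 3. The fold was 1.02 with a 95% interval of 0.943 to 1.11 (log2 0.03 ± 0.05, SE; edgeR adjusted p = 0.969).

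Cdh2, the N-cadherin gene, stood at 151, 149, 141 and 153 CPM in the controls and at 139, 145, 138 and 142 CPM with Zac1. Control library 3 fell among the Zac1 values, and the other control libraries lay above every Zac1 library. The fold was 0.949, with an interval of 0.889 to 1.01 (log2 -0.08 ± 0.04, SE; edgeR adjusted p = 0.806). The ratio of Cdh1 to Cdh2 per kilobase of exon compares the cadherins within a library. It was 1.14, 1.12, 1.05 and 1.04 in the controls and 1.22, 1.2, 1.15 and 1.11 with Zac1. The highest control ratio, 1.14, lay above the lowest Zac1 ratio, 1.11, so the groups overlapped, and no test was made of this score.

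Epcam encodes a surface glycoprotein of epithelial cells. It stood at 58, 52.7, 53 and 54.5 CPM in the controls and at 55.1, 50.8, 50.6 and 48.9 CPM with Zac1. Library 1 was the highest in both groups and the ranges overlapped. The fold was 0.942, with an interval of 0.869 to 1.02 (log2 -0.09 ± 0.05, SE; edgeR adjusted p = 0.839).

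Ocln encodes occludin, a membrane protein of tight junctions, the seals nearest the free surface of an epithelium. It stood at 5.03, 4.29, 4.52 and 4.74 CPM in the controls and at 6.43, 6.01, 5.13 and 5.32 CPM with Zac1, from 144 to 269 counts a library. Every Zac1 library lay above every control library, by a margin of 5.13 against 5.03 at the closest point. Among all tested genes 5.81% had groups that did not overlap, and 4.39% did so with Zac1 higher, and Ocln was the single case among the 7. The fold was 1.23, with an interval of 1.04 to 1.45 (log2 0.30 ± 0.11, SE; unadjusted p = 0.017, edgeR adjusted p = 0.383), so the difference did not pass the test over all genes.

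**Figure D2:**
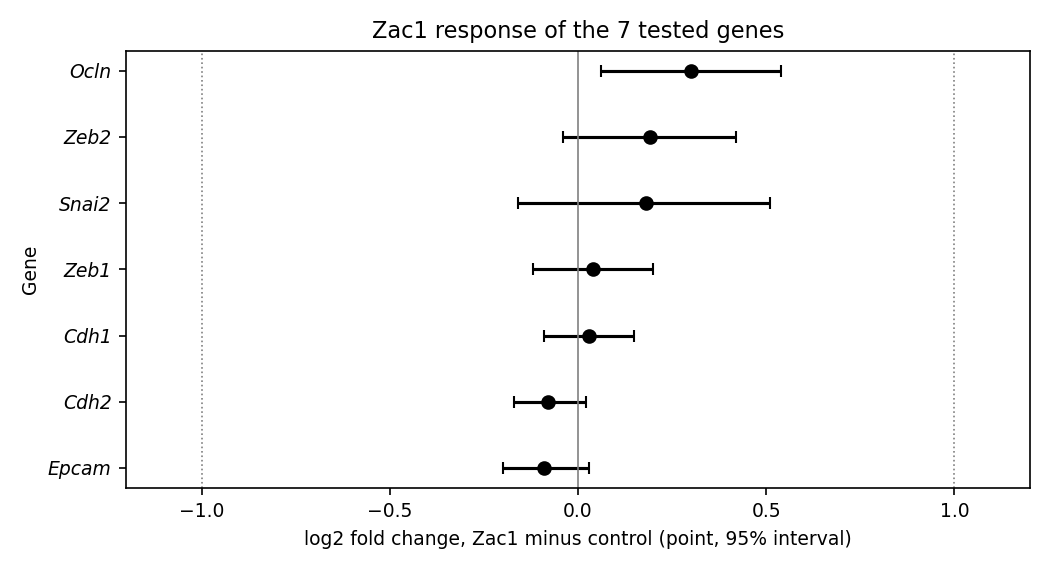
Log2 fold change (Zac1 minus control) of the 7 tested genes, each point with its 95% interval from the edgeR fit on 4 against 4 libraries; dotted lines mark a 2-fold change. The interval of Ocln, 0.06 to 0.54, is the single one that leaves out 0, and that of Snai2, -0.16 to 0.51, is the widest.

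The start regions of Epcam, Ocln and Snai1 are shown. Of the 6 genes with a region at hand, these 3 hold E-boxes of the kind bound by Snail and Zeb factors. Those of Twist1, Twist2 and Zeb2 hold none and are not printed. The sequences are RefSeq start regions on GRCm38.p6, 250 bases before to 50 bases after an annotated start, read on the strand of the gene; capitals mark CAGGTG or its reverse complement CACCTG.
Epcam, chr17:87635729-87636028, plus strand: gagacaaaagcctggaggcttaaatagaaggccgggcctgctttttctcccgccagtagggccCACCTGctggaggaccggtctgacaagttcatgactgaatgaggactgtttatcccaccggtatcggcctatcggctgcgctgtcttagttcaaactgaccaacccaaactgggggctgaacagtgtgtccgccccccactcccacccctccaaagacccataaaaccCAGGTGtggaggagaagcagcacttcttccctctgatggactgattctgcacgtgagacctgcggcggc
Ocln, chr13:100552449-100552748, minus strand: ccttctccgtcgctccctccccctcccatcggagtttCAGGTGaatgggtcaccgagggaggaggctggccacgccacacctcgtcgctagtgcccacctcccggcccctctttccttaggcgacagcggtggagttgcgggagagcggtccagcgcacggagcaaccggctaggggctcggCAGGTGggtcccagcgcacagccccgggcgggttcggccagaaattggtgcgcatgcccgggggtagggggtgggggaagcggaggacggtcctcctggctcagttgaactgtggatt
Snai1, chr2:167537945-167538244, plus strand: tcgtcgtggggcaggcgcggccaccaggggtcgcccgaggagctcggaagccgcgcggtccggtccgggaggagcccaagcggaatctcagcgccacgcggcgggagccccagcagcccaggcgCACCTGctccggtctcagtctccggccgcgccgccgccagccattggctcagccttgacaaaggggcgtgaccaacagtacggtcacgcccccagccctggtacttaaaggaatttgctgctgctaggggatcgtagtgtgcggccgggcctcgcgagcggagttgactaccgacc

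In the Epcam region the E-boxes begin 187 and 19 bases upstream of the start, in the Ocln region 213 and 68 bases upstream, and in the Snai1 region 126 bases upstream. Ocln has 2 annotated starts whose regions overlap, and the one with more E-boxes is shown; the other holds 1, which is the same element as the first of those shown. Regions were at hand for 6 of the 10 genes, 10 regions in all, and the E-box was read on both strands in 4 of them, from Epcam, Ocln and Snai1. It was present in 20.2% of the 32851 regions of this length over all genes. The letters GGGGCCCC, which are their own reverse complement and are reported as a binding element of Zac1, occurred in 0 of the 10 regions and in 1.08% of all regions. Snai2, Zeb1, Cdh1 and Cdh2 had no region at hand and are not shown.

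The transcription factors with enough counts to be tested were Zeb1, Zeb2 and Snai2. Zeb1 encodes a repressor with zinc fingers at both ends and stood at 17.4, 18, 19.6 and 18.9 CPM in the controls and at 17.4, 18.5, 19.1 and 20.9 CPM with Zac1. The groups overlapped almost wholly, with Zac1 library 5 the highest. The fold was 1.03, with an interval of 0.922 to 1.14 (edgeR adjusted p = 0.973).

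Zeb2, its paralog of the same build, stood at 3.86, 4.8, 4.33 and 4.65 CPM in the controls and at 5.28, 5.05, 5.01 and 4.8 CPM with Zac1. The lowest Zac1 library and the highest control library met at 4.8 CPM, and the other values lay apart. The fold was 1.14, with an interval of 0.973 to 1.34 (log2 0.19 ± 0.11, SE; edgeR adjusted p = 0.788). Exons of Zeb2 overlap those of the antisense gene Zeb2os in the GENCODE M21 annotation, over a longest stretch of 181 bases, and the strand setting of the counting is not given in the sources used here, so a share of its reads is uncertain.

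Snai2, or Slug, is a Snail repressor of neural crest and mesenchyme. It stood at 2.9, 2.87, 2.79 and 2.75 CPM in the controls and at 2.75, 3.06, 2.67 and 4.28 CPM with Zac1, from 84 to 181 counts a library. Zac1 library 5 stood above all others, and the other Zac1 libraries lay within or near the narrow control range. The fold was 1.13, with an interval of 0.894 to 1.43 (log2 0.18 ± 0.16, SE; edgeR adjusted p = 0.934). Without Zac1 library 5 the log2 change was 0.004 (edgeR adjusted p = 0.999), so the difference in means rested on that library. Zac1 library 5 was also the highest for Zeb1, whose log2 change went from 0.04 to -0.0043 without it.

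**Figure D3:**
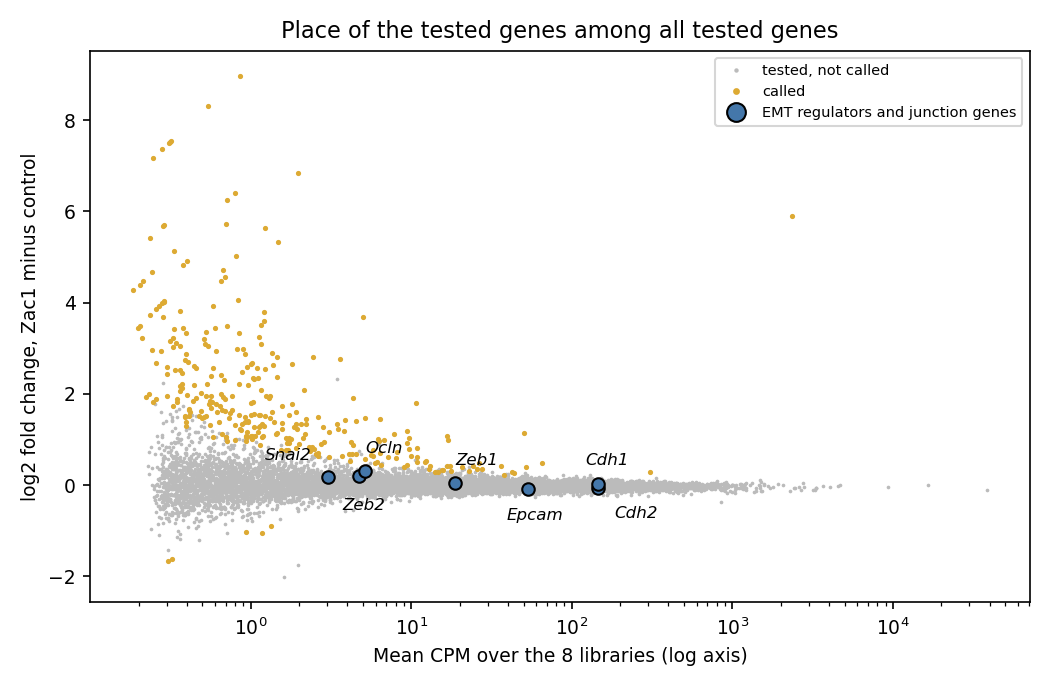
Log2 fold change (Zac1 minus control) against mean CPM over the 8 libraries on a log axis, with 1 point for each of the 14331 tested genes; called genes are gold and the 7 tested EMT and junction genes are blue. The blue points lie in the grey band between -0.09 and 0.30.

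Snai1, Twist1 and Twist2 were near silence in both groups and did not pass the filter on low counts. Snai1, or Snail, is a repressor that the mouse embryo needs to form mesoderm. It had 3, 1, 1 and 3 counts in the controls and 5, 0, 7 and 0 counts with Zac1. Its counts summed to 8 and 12, a ratio of 1.24 per depth with an exact 95% counting interval of 0.468 to 3.51. Both groups hold libraries with at most 1 count, and the Zac1 libraries are the more uneven.

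Twist1 encodes a basic helix-loop-helix factor of mesoderm and neural crest. It had 2, 2, 1 and 0 counts in the controls and 3, 3, 2 and 2 counts with Zac1, sums of 5 and 10. Per depth this is a ratio of 1.66 (counting interval 0.517 to 6.19). Twist2, its paralog in dermis and bone, had 0, 1, 0 and 0 counts in the controls and 3, 1, 1 and 0 with Zac1. Its ratio of 4.15 rests on 1 control count and has a counting interval of 0.464 to 196. In a fit without the filter these 3 genes had edgeR adjusted p of 0.98 (Snai1), 0.917 (Twist1) and 0.886 (Twist2), in a fit that called 2.14% of 19900 genes. The upper 95% limits on their pooled levels in the Zac1 group were 0.131 CPM for Snai1, 0.115 CPM for Twist1 and 0.073 CPM for Twist2. These limits used unscaled library totals and cover counting error only. At this depth a change within these levels was not detectable. Exons of Twist2 overlap the antisense gene Gm29100 over up to 1468 bases, so even its few counts are uncertain.

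To set the genes in order, CPM were divided by the exon length of each gene in GENCODE M21, which need not be the annotation used for counting. In the controls Cdh1 led, at 32.6 ± 2.05 CPM per kilobase, followed by Cdh2 at 30 ± 1 and Epcam at 26.4 ± 1.17 (SD, n = 4). The ranges of Cdh1 and Cdh2 over the libraries overlapped, whereas Epcam lay below both. Within each control library Cdh1 was slightly the higher, with Cdh1 to Cdh2 ratios of 1.14, 1.12, 1.05 and 1.04, which were not tested. On this scale Cdh1 exceeded 83.7% of tested genes with a length, Cdh2 82.3% and Epcam 80.1%. A gap of 8.29-fold followed, to Zeb1 at 3.19 ± 0.163 CPM per kilobase. Snai2 came next at 1.4 ± 0.0336, then Ocln at 1.1 ± 0.0748 and Zeb2 at 0.385 ± 0.0363, and the control ranges of each of these neighbours were apart. Zeb2 lay 10.2-fold above Snai1 (0.0379 ± 0.0226), which overlapped Twist1 (0.0225 ± 0.0168), and Twist1 overlapped Twist2 (0.00224 ± 0.00448). In control Min6 cells the transcripts for E-cadherin and N-cadherin were thus at similar levels per length, and of the 6 transcription factors Zeb1, Snai2 and Zeb2 were read above the filter. With Zac1 the order by mean was the same, from Cdh1 at 33.3 ± 1.64 and Cdh2 at 28.4 ± 0.603 to Twist2 at 0.00978 ± 0.0094 CPM per kilobase. The ranges of Cdh1 (31.7 to 35) and Cdh2 (27.8 to 29.2) did not overlap there, while those of Snai2 (1.32 to 2.12) and Ocln (1.22 to 1.52) did.

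The related factors of the same network also gave no call. Over all tested genes edgeR called 2.18%, and 7.58% had an unadjusted p under 0.05. In lists of this size a count of 0 does not stand apart from those shares. Of the 10 relatives of Snail and partners of the helix-loop-helix factors, 9 were tested and 0 called in edgeR, DESeq2 or limma-voom (0 also before adjustment), with a median log2 change of -0.04 and a range of -0.09 to 0.03. Among them Scrt1, a Scratch factor of neurons named after its values were seen, stood at 43 ± 3.83 CPM in the controls and 42 ± 7.64 CPM with Zac1. The E protein gene Tcf12 was at 104 ± 5.21 and 106 ± 7.53 CPM, Tcf4 at 94.7 ± 2.88 and 90.8 ± 1.12 CPM, and Id2, an inhibitor of E proteins, at 174 ± 11.4 and 174 ± 7.58 CPM. Of 15 factors known to keep the epithelial state, 14 were tested and 0 called in edgeR, DESeq2 or limma-voom (1 in edgeR before adjustment). Their median log2 change was 0.12. Esrp1, a splicing factor of epithelia, gave 19 ± 1.37 and 20.6 ± 1.21 CPM, Elf3 24 ± 3.78 and 24.7 ± 2.27 CPM, and Foxa2 35.6 ± 2.79 and 32 ± 3.66 CPM, none past the test. The 1 gene under an unadjusted p of 0.05 was Klf5, at 0.516 ± 0.0733 and 0.848 ± 0.168 CPM (edgeR adjusted p = 0.287), named after its values were seen.

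The other cadherins and the junction parts that cadherins work with gave no call either. These lists too are small against the shares of all tested genes, 2.18% called and 7.58% before adjustment. Their counts do not set them apart from those shares. Of 27 further cadherins 19 were tested and 0 called in edgeR, DESeq2 or limma-voom (2 in edgeR before adjustment, Cdh17 and Cdh24, named for that), with a median log2 change of 0.07. Cdh4, or R-cadherin, a close relative of N-cadherin, stood at 214 ± 18.3 CPM in the controls and 219 ± 10.7 CPM with Zac1. The desmosomal cadherin Dsg2 was at 70.4 ± 2.66 and 73.9 ± 3.03 CPM and Cdh22 at 30.1 ± 5.13 and 30.8 ± 6.48 CPM. Of 18 catenins, nectins and other adherens junction parts 17 were tested and 0 called in edgeR, DESeq2 or limma-voom (2 in edgeR before adjustment, Pvrl2 and Ctnnal1, named for that), with a median of 0.02. Ctnnb1, the gene of beta-catenin, which ties cadherins to the cytoskeleton and carries Wnt signals, was at 469 ± 10.3 and 474 ± 18.8 CPM. Lmo7 was at 273 ± 13.3 and 273 ± 25.7 CPM, and Mllt4, the gene of afadin, at 195 ± 8.04 and 199 ± 7.01 CPM. Of 34 tight junction genes 22 were tested and 0 called in edgeR, DESeq2 or limma-voom (1 in edgeR before adjustment), with a median of 0.02. The scaffold gene Tjp1 was at 329 ± 27.2 and 336 ± 22.7 CPM, the adhesion molecule F11r at 93.4 ± 3.28 and 91.1 ± 3.3 CPM, and Cxadr at 59.9 ± 3.25 and 62.3 ± 3.8 CPM. The tight junction gene under an unadjusted p of 0.05 was Tjp3, at 0.241 ± 0.0519 and 0.487 ± 0.133 CPM (edgeR adjusted p = 0.237), named after its values were seen. Tjp3 passed the filter only through the Zac1 libraries.

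Called genes appeared in the lists of desmosome plaque and epithelial surface genes and of mesenchymal markers. Ppl, the gene of periplakin, which links intermediate filaments to the cell border, stood at 21.2, 23.4, 20.6 and 22.7 CPM in the controls and at 30.2, 31.2, 30.8 and 30.2 CPM with Zac1. The groups were well apart, and Ppl rose 1.39-fold (log2 0.48 ± 0.06, SE; edgeR adjusted p = 0.000218). Pkp3, a plakophilin of desmosomes, was at 0.142 ± 0.0629 CPM in the controls and rose 3.71-fold, to 0.547 ± 0.142 CPM (edgeR adjusted p = 0.0108). These were the 2 called of 16 tested genes in that list, both higher, where 2.15% of all tested genes were called higher. Pkp3 passed the filter only through the Zac1 libraries, so counts that include it say nothing of the list as a whole. Before adjustment 4 genes of the list had an edgeR p under 0.05, all higher, against 7.58% of all tested genes in either direction. The uncalled ones among them were St14 (edgeR adjusted p = 0.158) and Spint1 (edgeR adjusted p = 0.64), named for that. The most counted genes of the list were the keratins Krt7 (160 ± 15.7 and 149 ± 20.6 CPM) and Krt8 (125 ± 4.21 and 121 ± 7 CPM) and the plakophilin Pkp4 (132 ± 2.9 and 126 ± 9.87 CPM). They were not called.

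Of 30 mesenchymal markers 16 were tested and 5 called, all higher, where 2.15% of all tested genes were called higher; the median log2 change of the 16 was 0.07. Col5a1, a chain of fibrillar collagen V, was at 0.16 ± 0.0827 CPM in the controls and 13.9-fold higher with Zac1, at 2.27 ± 0.163 CPM (edgeR adjusted p = 1.30e-06). Itga5, the fibronectin receptor chain, had 0 to 2 counts in each control library and 11 to 32 with Zac1 and was 15.8-fold higher (edgeR adjusted p = 0.000533). Cnn1, a calponin of smooth muscle, rose 4.51-fold to 0.592 ± 0.181 CPM (edgeR adjusted p = 0.00838), the receptor kinase Axl 5.22-fold to 0.963 ± 0.266 CPM (edgeR adjusted p = 0.0133), and Col1a1 3.08-fold to 1.04 ± 0.337 CPM (edgeR adjusted p = 0.00766). Each of the 5 passed the filter only through the Zac1 libraries, having at least 1 control library under the filter's level of 0.287 CPM, so their number says nothing of the list as a whole. The markers at higher levels were not called: Ncam1 was at 304 ± 16.7 and 295 ± 16.9 CPM, the cross-linking enzyme Loxl2 at 301 ± 20.8 and 301 ± 14.9 CPM, and Itgav at 143 ± 9.47 and 147 ± 7.87 CPM. Prrx1, a homeobox factor of mesenchyme, was the 1 tested marker with every Zac1 library below every control library. Among all 14331 tested genes 203 had groups apart in this direction. Prrx1 stood at 1.14 ± 0.119 and 0.867 ± 0.0609 CPM (edgeR adjusted p = 0.692) and is named after its values were seen. Vim, the gene of vimentin and a standard EMT marker, had 1, 1, 0 and 0 counts in the controls and 8, 3, 1 and 0 with Zac1, too few to test. Fn1, the fibronectin gene, was at 2.44 ± 0.64 and 2.46 ± 0.142 CPM (edgeR adjusted p = 0.994); Vim and Fn1 were named outside the rule as usual EMT markers. Of the fibroblast and stellate markers listed above, Des, the gene of desmin, was the 1 called of 4 tested and was 32.5-fold higher (log2 5.02; edgeR adjusted p = 1.66e-05), against 2.15% of all tested genes called higher. Des too passed the filter only through the Zac1 libraries, so its call says nothing of the list as a whole. Its 6 control counts lay in control libraries 1 and 2, and without control library 2 the log2 change was 6.05, so the size of the fold is imprecise. The other tested markers were not called: Thy1 was at 1.09 ± 0.22 and 0.834 ± 0.225 CPM, Fap at 0.442 ± 0.0709 and 0.381 ± 0.125 CPM, and Col1a2 at 0.698 ± 0.165 and 0.734 ± 0.113 CPM. Of the 6 untested ones, Pdgfra had 6 counts in the controls together and 16 with Zac1, Pdgfrb 2 and 14, Dcn 7 and 10, Col3a1 3 and 0, Acta2 4 and 1, and Lum 0 and 0, all named to account for the whole list. The part of such cells in the called mesenchymal genes was not tested.

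**Figure D4:**
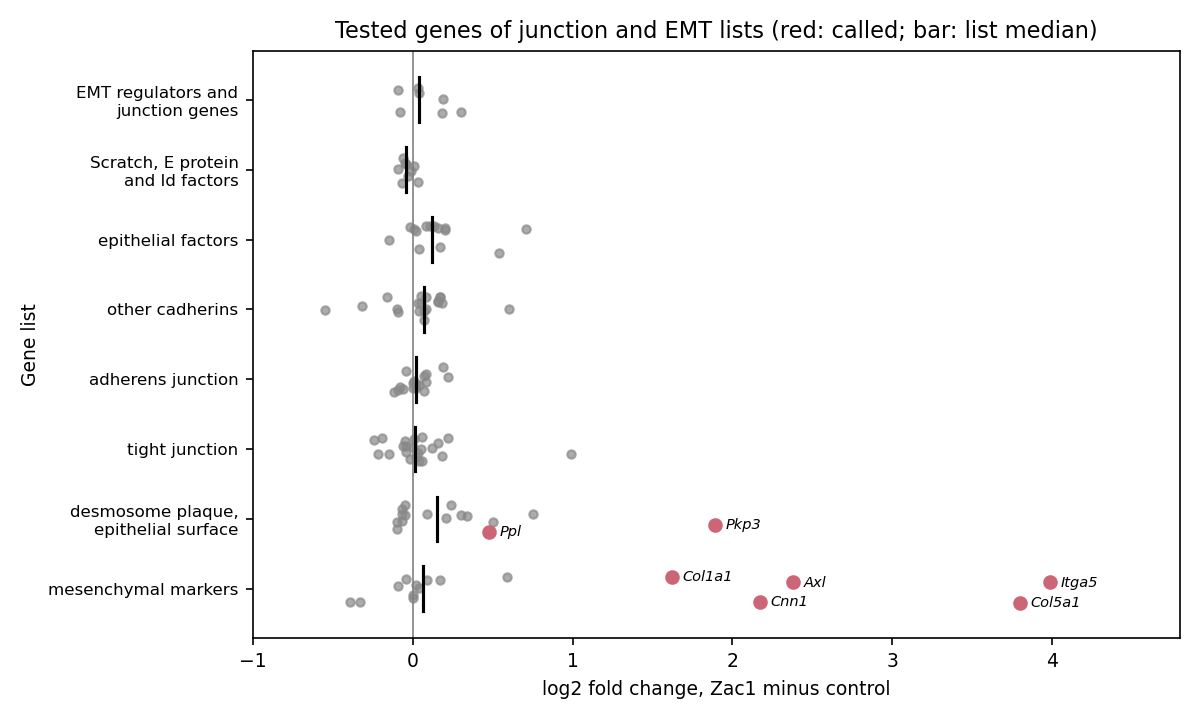
Log2 fold change (Zac1 minus control) of each tested gene in 8 lists, 1 point a gene with a bar at the list median; called genes are red and named. The EMT regulators and junction genes, the other factors, the cadherins and the adherens and tight junction parts hold no red point, and the red points lie among the desmosome and surface genes and the mesenchymal markers.

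The gene with the smallest p among the 10, Ocln, was set beside all other tested genes by Pearson's r of log2 CPM over the 8 libraries. The genes most like it were Zfp318 (r = 0.971), Wnt9a (r = 0.964) and H2-Q10 (r = 0.960), and 36 named genes had an r above 0.9. Zfp318 ranged from 76.6 to 81.3 CPM in the controls and from 80 to 88.5 CPM with Zac1, so likeness of pattern does not mean likeness of size. Wnt9a ranged from 2.19 to 2.43 and from 2.36 to 3.06 CPM, and H2-Q10, a histocompatibility gene with near copies among which reads can be split, from 0.131 to 0.351 and from 0.41 to 0.86 CPM. These values describe the 8 libraries, which share their 2 groups.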

How the data were processed

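The authors deposited raw counts of reads for every gene in 8 libraries. Per the submitters' processing notes, the tools were HTSeq 0.6.1p1, Bowtie2 2.2.8, TopHat2 2.1.1, FastQC and bcl2fastq 2.17, with build mm9. The labels name a stranded library kit. Annotation, strand setting and filters of the counting are not given there. From the counts, edgeR 4.0.16 in R 4.3.3 fitted Zac1 against control over the whole table (filterByExpr, TMM, robust quasi-likelihood F test, Benjamini-Hochberg threshold 0.05). This kept 14331 genes. The SE is the fold change over the root of its F, and the 95% interval comes from that SE. CPM used TMM-scaled totals (30.5 to 42.4 M counts before scaling). The limits on pooled levels used unscaled totals. Ratios of genes with few counts carry exact binomial intervals that cover counting error only, as PCR copies were not told apart. The steps were tested on simulated counts. The 95% interval on a level is exact Poisson.

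The 10 genes and the other lists were chosen with earlier results of these data known. The rule for named genes takes Plagl1, the 10 genes, the called members and the 3 most counted members of each list, and the 3 genes most like the one with the smallest p; for the beta, endothelial, immune, duct and acinar markers the summed level stands in their place. Genes outside the rule are said to be so where they are named, apart from markers at 0 in all libraries and overlapping antisense genes. Nothing shows that replicates came from separate cultures beyond the word biological. The p-values set the group difference against the spread between these libraries, and may be too small if the libraries are not independent. No library repeats another: within groups, each pair's chi-square over its degrees of freedom was 8.906 to 29.84. Pairs with a library numbered 5 gave 15.61 to 29.84, and pairs without one gave 8.906 to 12.34. Exon lengths came from GENCODE M21, for 85.7% of tested genes, and start regions from RefSeq on GRCm38.p6, and no mm9 coordinate is given. Alternatives were DESeq2 1.42.0, limma-voom 3.58.1, median-of-ratios scaling, library totals, no filter, a replicate block and libraries left out.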

Additional observations from a re-analysis of the deposited data

Results flagged for a closer look

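In a group of 4, a library was marked where its gap to the nearest other took most of the group's range. For normally spread values chance gives this in about 1 in 20 groups, a rate that does not hold for genes with few counts. Of the 38 groups examined 3 were marked. Plagl1 in Zac1 library 1 stood at 5785 CPM, above the other Zac1 libraries. Twist2 in control library 2 stood at 0.0284 CPM, a single count where the other controls had 0, a pattern that is always marked. Cnn1 in Zac1 library 1 stood at 0.86 CPM, the highest of its group.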

How the results depend on the processing

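In all 15 alternatives 0 of the 10 genes were called. The sign turned in 3 values, all near 0: Snai2 at -0.01 without both libraries numbered 5, Zeb1 at -0.0043 without Zac1 library 5 and Cdh1 at -0.0018 without control library 3 (log2). Leaving out single libraries gave -0.0043 to 0.08 for Zeb1 and -0.0018 to 0.07 for Cdh1. The adjusted p of Ocln ranged from 0.119 to 0.703 and its log2 change from 0.24 to 0.35. The 8 called list genes named above kept their calls throughout, with the adjusted p of Axl reaching 0.0492 and its log2 change, 2.38, reaching 3.0 in limma-voom. Over all genes, 308 were higher and 5 lower; leaving out single libraries gave 260 to 357 higher and 1 to 5 lower, and DESeq2 gave 8 lower. With the replicate block the counts were 512 higher and 116 lower, and the block made Pvrl2 (adjusted p = 0.041) and Ctnnal1 (adjusted p = 0.0285) of the adherens junction list called. Same-numbered libraries deviated from their group means together with r of 0.291, 0.048, 0.143 and 0.292 for numbers 1, 2, 3 and 5. Control libraries 1, 3 and 5 matched the Zac1 library of their own number best. Control library 2 matched Zac1 library 3 best. The sources do not state that the numbers mark pairs or a batch, so the block was kept as an alternative. Depth limits Snai1, Twist1 and Twist2, at 0 to 7 counts a library.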
